A study of Mus musculus with 4 samples.

Results

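Chromaffin cells make, store and release catecholamines, and 9 genes that mark these cells or the catecholamine pathway were followed in mouse liver RNA after treatment with aristolochic acid I (AAI). The genes were Chga, Chgb and Scg2 (granins), Th, Ddc, Dbh and Pnmt (enzymes), Slc18a1 (a transporter) and Npy (a peptide). They were found by gene name among the non-control probes of the array, which gave 16 of 56605 probes and 9 of 37074 gene names. There was 1 array for each of 4 groups of 6-week-old C57BL/6 wild-type mice: females injected i.p. with 5 mg/kg/day AAI, males injected with 2 mg/kg/day AAI, and controls of each sex that got corn oil. Injections were given 5 days a week for 3 weeks. Each array read the pooled liver RNA of 5 mice, so that differences among mice were not measured. AAI is a plant nephrotoxin, and the arrays asked how the liver responds to it in each sex. The genes were chosen on the ratios of these same arrays, above all those of males. Their values are therefore a description, and no test was run.

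Catecholamines are made from tyrosine in a chain of steps. Tyrosine hydroxylase (Th) makes L-DOPA in the rate-limiting step, and DOPA decarboxylase (Ddc) turns it into dopamine. Dopamine beta-hydroxylase (Dbh) makes noradrenaline inside the granule, and phenylethanolamine N-methyltransferase (Pnmt) makes adrenaline. Vesicular monoamine transporter 1 (Slc18a1) loads the amines into dense core granules, whose matrix is built of chromogranins and secretogranins and which also carry neuropeptide Y (Npy). Most chromaffin cells lie in the adrenal medulla. In liver, the proteins Th, Dbh and Npy are known from sympathetic nerve fibres, whereas Ddc is also made outside neuroendocrine cells, in liver and kidney.

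Of the 9 genes, 7 had a promoter window in RefSeq (GRCm38.p6), taken as 250 bases before to 50 bases after each annotated start. The windows were searched on both strands for TGACGTCA, the palindromic cAMP response element, and for TGACG, its shorter core, which every TGACGTCA holds on both strands. TGACGTCA was found in the windows of Th, Chgb and Scg2, beginning 45, 72 and 68 bases before the start. It was found in 2.03% of all 27025 genes with a window, and in 1.79% of all 32851 windows. TGACG, counted with or without the longer motif, was found in 5 of the 7 genes. Its share was 23.0% of all genes with a window and 20.8% of all windows. The 2 genes that TGACG adds were Chga, 44 bases before the start, and Dbh, 222 bases before it. The motifs were chosen with the results known, and a match is a description of letters, not a site. The 90 bases before the start of the 4 genes with the match nearest the start are shown 5′ to 3′ on the gene's strand, with the matched letters in capitals.

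Th (chr7:142899996-142900085, minus strand): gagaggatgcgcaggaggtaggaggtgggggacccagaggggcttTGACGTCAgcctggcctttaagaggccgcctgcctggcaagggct
Chgb (chr2:132781552-132781641, plus strand): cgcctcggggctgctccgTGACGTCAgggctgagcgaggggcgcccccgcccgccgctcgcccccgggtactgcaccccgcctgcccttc
Scg2 (chr1:79440027-79440116, minus strand): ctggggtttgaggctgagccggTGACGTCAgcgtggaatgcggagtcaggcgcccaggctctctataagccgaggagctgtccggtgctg
Chga (chr12:102554851-102554940, plus strand): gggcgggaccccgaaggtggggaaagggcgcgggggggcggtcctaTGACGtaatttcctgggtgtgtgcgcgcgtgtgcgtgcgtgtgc

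The sequences that read the RNA are probes of 60 bases, copied from the scanner files and placed on mouse genome build mm9. The probes of Th and Npy shown here cover 212 and 3763 bases of the genome, and each thus joins exons on both sides of an intron. The Pnmt probe lies in 1 stretch. They are shown because the Npy and Pnmt ratios rest on them, and because this Th probe was the one of its gene past 2-fold in males, although the brighter Th probe stands for the gene in every count by gene.

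Th (NM_009377, chr7:150080370-150080581, minus strand): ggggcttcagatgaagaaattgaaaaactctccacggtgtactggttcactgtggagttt
Npy (NM_023456, chr6:49773743-49777505, plus strand): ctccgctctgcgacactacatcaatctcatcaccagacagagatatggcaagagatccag
Pnmt (NM_008890, chr11:98248798-98248857, plus strand): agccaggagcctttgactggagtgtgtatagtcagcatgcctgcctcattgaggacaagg

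Between 74.7% and 81.5% of probes were well above background on the 4 arrays, and no spot was saturated. Of the 25 spots of the 9 genes per array, 1 was marked as an outlier in control females and 2 in control males, all of Chgb, and these were left out. The 11 hepatocyte genes read for the liver label (such as Alb and Ttr) were all above background in every group. Their median log2 ratios were 0.04 in females and -0.04 in males. With signals this bright, they could not show whether RNA of other tissues was present as well. Signals below are log2 values after quantile normalization, and a log2 ratio is the AAI value less the control value of the same sex. The error given with a ratio comes from the scanner software's own estimate for each spot and covers the measurement of 1 array pair, not mice. For Chgb, the only 1 of the 9 genes with more than 1 spot per probe, this error shrinks with the number of spots, as if they were independent. As a second measure of technical error, the median SD among probes that read the same gene was 0.25 for female and 0.24 for male ratios. Levels of single genes are compared between groups for 1 probe, and between probes only to say which genes make up a summed signal. Summed signals of gene lists add probes together, so bright probes weigh most in them. Since RNA came from whole tissue, more cells of a type and more RNA per cell cannot be told apart.

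By the brightest probe of each gene, the granins had the 3 highest male ratios among the 9 genes. Chromogranin B (Chgb, NM_007694) gave 4.16 in control females, not well above background, 3.81 in AAI-treated females, 4.90 in control males and 12.70 in AAI-treated males. The AAI-treated male pool thus stood far above the other pools, with a log2 ratio of 7.79 ± 0.11, a 222-fold difference and the 2nd highest of 28433 ranked genes in males. Its probe was spotted 10 times on each array. In AAI-treated males the processed signal of these spots lay between 6060 and 6620, with an SD of 0.045 on the log2 scale. In control males it lay between 19.5 and 40.8 over the 8 spots used, of which 5 were above background, with an SD of 0.44. The error of 0.11 is averaged over these spots and does not cover the choice of background model. Under the normexp background model the log2 ratio was 5.79. The ranges were 7.53 to 29.8 in control and 7.65 to 36.3 in AAI-treated females, with 3 of 9 and 6 of 10 spots above background. The spots of the AAI-treated male pool did not overlap those of any other array, while the 2 female arrays overlapped over nearly their whole range, as the plot of Chgb spots shows.

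**Figure D1:**
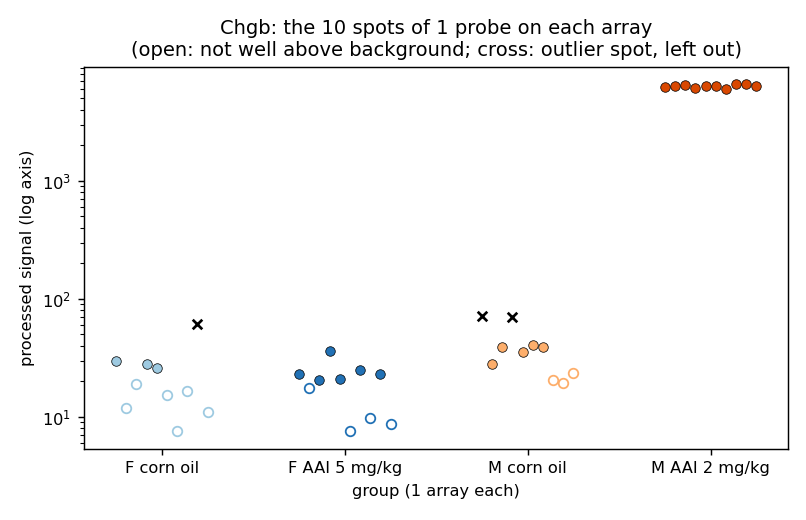
Processed signal (linear intensity on a log axis) of each of the 10 spots of the Chgb probe on the 4 arrays; open symbols are spots not well above background and crosses are outlier spots that were left out. Spots of AAI-treated males lie between 6060 and 6620, above every spot of the other arrays.

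Chromogranin A (Chga, NM_007693), the most used marker of dense core granules, was above background everywhere. It gave 7.51 in control females, 7.56 in AAI-treated females, 8.67 in control males and 12.51 in AAI-treated males. The 2 female pools differed by 0.06 ± 0.21, less than the scanner error, and the male pools by 3.84 ± 0.20, a 14.3-fold difference. Secretogranin II (Scg2, NM_009129), a granin that is cut into peptides such as secretoneurin, gave 3.30, 4.41, 5.57 and 11.02 in the same order. It was not well above background in control females and came out 44.0-fold higher in AAI-treated than in control males, with a log2 ratio of 5.46 ± 0.23. For females only a bound could be given, at least 1.05-fold higher. In all 3 granins AAI-treated males were highest and control males next, while the order of the female pools differed between them.

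**Figure D2:**
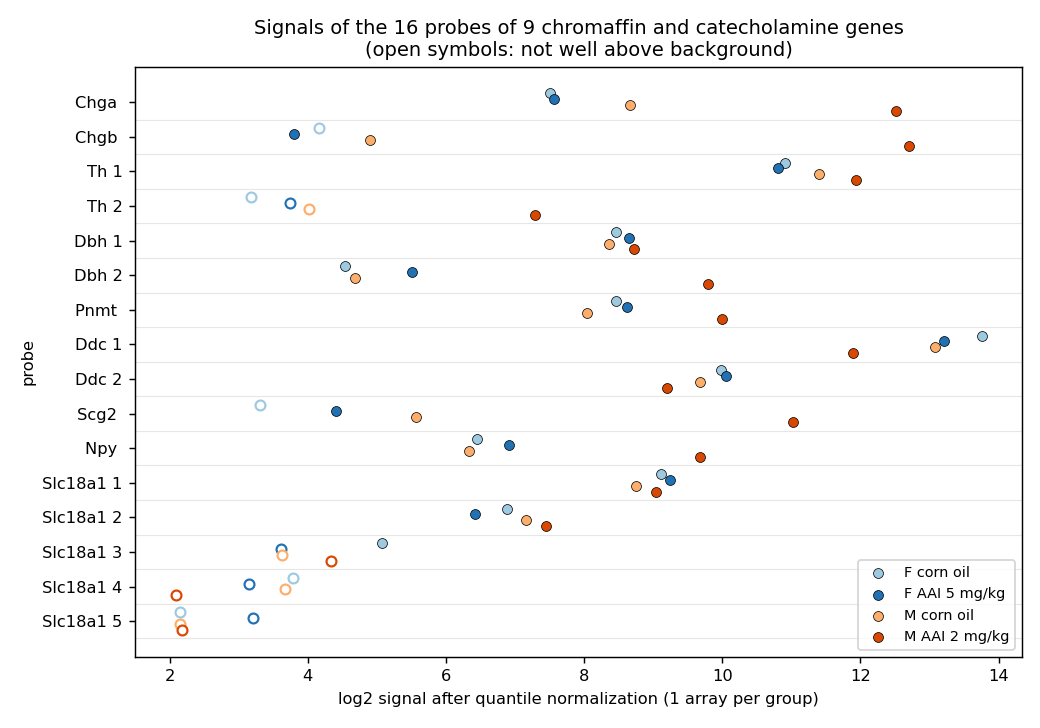
Log2 signal after quantile normalization for each of the 16 probes (rows; probes of 1 gene are numbered from the brightest) in the 4 groups (F, females; M, males), 1 array each; open symbols are not well above background. AAI-treated males stand above the other pools for Chgb (12.70), Chga (12.51), Scg2 (11.02), Pnmt (10.003), the second Dbh probe (9.80) and Npy (9.67). They do so too for the second Th probe (7.29), and are lowest for both Ddc probes (11.89 and 9.20). Slc18a1 shows no such gap.

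The enzymes did not move as a block, and for Th and Dbh the answer depended on the probe. The brighter Th probe (NM_009377, chr7:150078703-150078762) gave 10.90 in control females, 10.81 in AAI-treated females, 11.39 in control males and 11.93 in AAI-treated males. The female pools differed by -0.10 ± 0.20 and the male pools by 0.54 ± 0.20, under 2-fold in both. The exon-joining Th probe, printed above, was not well above background in the first 3 of these pools and gave 7.29 in AAI-treated males, at least 8.01-fold higher than in control males. Both probes are annotated to the same transcript. Which of them follows Th mRNA was not tested.

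Ddc differed in direction from the other enzymes. Its brighter probe (NM_001190448) gave 13.76 in control females, 13.21 in AAI-treated females, 13.08 in control males and 11.89 in AAI-treated males. The AAI-treated male pool was the lowest, 2.28-fold below its control, with a log2 ratio of -1.19 ± 0.20, and the female ratio was -0.55 ± 0.20. The other Ddc probe (NM_016672) gave -0.47 ± 0.20 in males and 0.07 ± 0.20 in females, so that the female direction was not shared. No Ddc probe was higher in AAI-treated than in control males.

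Dbh repeated the split seen for Th. The brighter probe (NM_138942, chr2:27037081-27037140) gave 8.46, 8.65, 8.36 and 8.73 in control females, AAI-treated females, control males and AAI-treated males, with log2 ratios of 0.19 ± 0.21 in females and 0.37 ± 0.21 in males. The 4 pools thus lay within 0.37 of each other. The other probe (chr2:27038665-27038724), which lies further along the same transcript, gave 4.53, 5.52, 4.69 and 9.80 in that order. It was 34.6-fold higher in AAI-treated males, with a log2 ratio of 5.11 ± 0.31, and 1.98-fold higher in AAI-treated females, with 0.98 ± 0.36, just under the 2-fold threshold.

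Pnmt, whose product makes adrenaline, has 1 probe. It gave 8.46 in control females, 8.62 in AAI-treated females, 8.04 in control males and 10.003 in AAI-treated males. The log2 ratio was 1.97 ± 0.21 in males, a 3.90-fold difference, and 0.15 ± 0.21 in females. Corn oil-treated males had the lowest signal of the 4 pools here, unlike the granins.

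Npy, a peptide stored with catecholamines in nerve endings and chromaffin cells, was above background in all groups. Its exon-joining probe gave 6.46 in control females, 6.91 in AAI-treated females, 6.34 in control males and 9.67 in AAI-treated males. AAI-treated males were 10.1-fold above their control, with a log2 ratio of 3.33 ± 0.22, and the female difference was 0.45 ± 0.22. Slc18a1, the vesicular transporter of chromaffin cells, did not share this pattern. Its brightest probe (NM_153054) gave 9.11, 9.24, 8.75 and 9.04 in the order used above, with a male log2 ratio of 0.29 ± 0.20. A second probe of the same transcript gave 0.30 ± 0.21 in males and -0.46 ± 0.22 in females. Of the 3 further probes, 2 were below background on every array, and the other was above it in control females only, where AAI-treated females were at least 2.41-fold lower. That bound came out under 2-fold when arrays were scaled to an upper percentile, without the scanner software's trend correction, and under the normexp background model, each of which left 0 of the probes of Slc18a1 past 2-fold.

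By the brightest probe of each gene, 5 of the 9 genes were at least 2-fold higher in AAI-treated males (Chga, Chgb, Pnmt, Scg2 and Npy) and 1 was at least 2-fold lower (Ddc). The shares among all 30539 genes tested in males were 3.51% higher and 4.59% lower. The median log2 ratio of the 9 genes was 1.97, against 0.00 for all genes. By probe, 7 of 13 with a signal were higher and 1 was lower, against 3.51% and 4.37% of all probes, and 7 of the 9 genes had a higher probe once Th and Dbh were included. Since these ratios were known when the genes were chosen, nothing is read from the shares. In AAI-treated females 0 of 9 genes were at least 2-fold higher and 0 lower, with a median of 0.07, against 1.37% higher and 3.09% lower among 31682 genes. By probe, 0 of 13 were higher and 1 was lower in females, that of Slc18a1, against 1.39% and 3.27%. Sex and dose changed together between the AAI-treated groups, so the part of each in this difference cannot be told apart, and the difference itself was not tested.

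**Figure D3:**
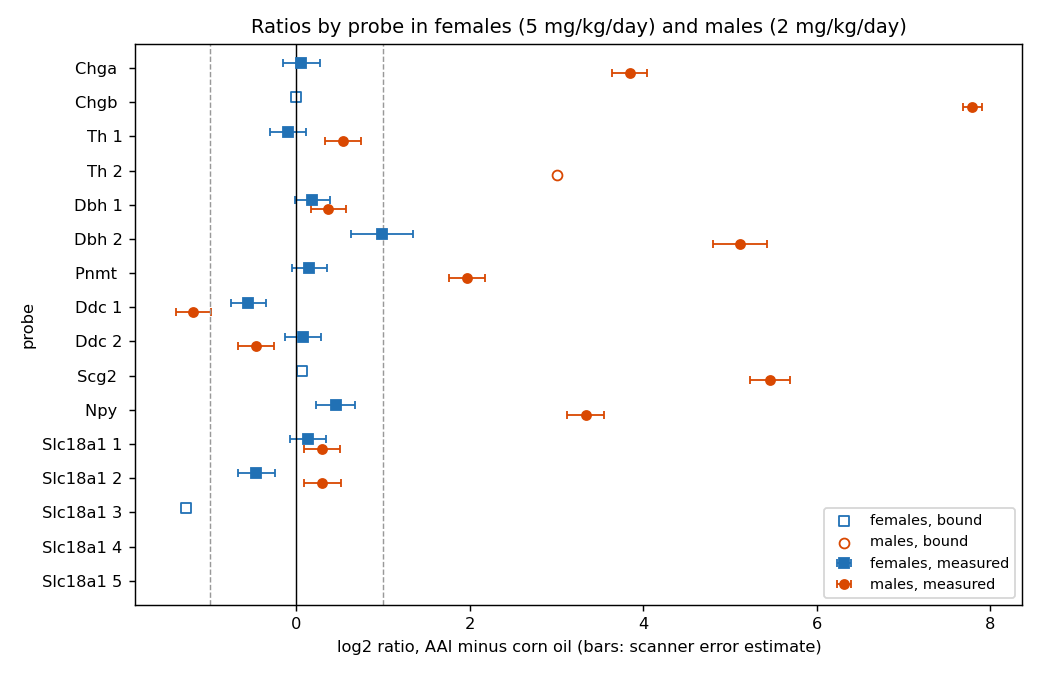
Log2 ratio of AAI-treated to control mice for each probe in females (squares) and males (circles). Bars are the scanner's error estimate, averaged over the spots for Chgb. Open symbols are bounds, probes below background on both arrays have no point, and dashed lines mark a 2-fold difference. In males 7 probes lie above the upper line, up to 7.79 for Chgb, and 1 below the lower line, and in females only an Slc18a1 bound lies outside the lines.

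The control pools of the sexes differed for 2 of the 13 probes with a signal. Chga was 2.24-fold higher in control males than in control females, and Scg2 was at least 2.33-fold higher. Among all probes, 3.62% were at least 2-fold higher and 1.94% at least 2-fold lower in this comparison, and no probe of the 9 genes was at least 2-fold lower. It shares the control male array with the AAI comparison in males.

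The supply and clearance of catecholamines was read from 14 further genes. In males 2 were at least 2-fold higher and 0 lower, and in females 0 were higher and 2 lower, with medians of -0.08 and 0.02. For this and the gene lists below, the shares of all genes at least 2-fold higher and lower were 3.51% and 4.59% in males. In females these shares were 1.37% and 3.09%. Cyb561, the granule membrane protein that passes electrons for the Dbh reaction, had a log2 ratio of 1.48 in males and 0.09 in females. Akr1b3, an aldose reductase, had 1.26 and 0.16, and a further probe gave 1.39 in males. Spr, sepiapterin reductase of the cofactor pathway of Th, had -1.79 in females and 0.50 in males. The monoamine oxidases Maoa and Maob, which break catecholamines down, stayed under 2-fold in both sexes, with male ratios of 0.43 and -0.03, and Slc18a2, the other vesicular transporter, had -0.48 in males and -1.11 in females.

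Among 22 genes of dense core granules and release, 4 of 20 with a signal were at least 2-fold higher in males and 0 lower, against 0 higher and 1 lower of 18 in females. Resp18, a granule protein of endocrine cells, was not above background in the other 3 pools and was at least 11.7-fold higher in AAI-treated than in control males. Cpe, which trims peptide hormones in granules, had a log2 ratio of 2.00 in males and -1.56 in females. Scg5, the secretogranin that assists a prohormone convertase, had 1.74 in males and 0.23 in females. Penk, the enkephalin precursor of chromaffin cells, is named with its values already known and had male ratios of 0.29 and 0.93 by its 2 probes. The list's medians were 0.48 in males and 0.20 in females.

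Transcription factors of the sympathoadrenal lineage gave 3 of 10 genes at least 2-fold higher and 0 lower in males, and 0 higher and 1 lower of 9 in females. Gata3 had a log2 ratio of 1.67 in males and -0.86 in females. Phox2a had 0.93 in males and was at least 2.63-fold lower in AAI-treated females. Of 14 genes of peripheral neurons, 3 of 12 were higher and 3 lower in males, with a median of 0.04. In females 1 of 12 was higher and 0 lower, with a median of 0.09, and 0 were higher under the normexp background model. Stmn2 was at least 15.4-fold higher in AAI-treated males by its brightest probe, and had a log2 ratio of 1.18 in females. A further Stmn2 probe gave a bound of -0.09 in males and was not above background in females. Uchl1 had 1.99 in males, and a further probe also gave -0.09. Ret, a receptor of sympathetic neurons, was above background in control males only and at least 24.0-fold lower in AAI-treated males.

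The receptors that would read these messengers gave 0 genes at least 2-fold higher in either sex. Of the 9 adrenergic receptor genes, Adrb1 was lower in both AAI-treated pools, with log2 ratios of -3.66 in females and -1.60 in males. Its signals there were 4.18 in females and 4.91 in males, near the lowest above background on these arrays, 3.81 and 4.70. Under the normexp background model 0 adrenergic receptor genes were at least 2-fold lower in males. Adra1b, a main adrenergic receptor of hepatocytes, had -0.56 in females and -0.37 in males. Of the 5 Npy receptor genes on the array, 3 had a signal in females and 2 in males, and 0 of these were past 2-fold. Npy1r had -0.67 in females and 0.67 in males.

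Genes of other tissues differed in the same AAI-treated male pool. Of 16 adrenal cortex genes, 10 were at least 2-fold higher and 1 lower in males, against 0 and 0 of 15 in females, with medians of 1.36 and 0.13. Akr1b7 had a male log2 ratio of 4.85, Star, which brings cholesterol into mitochondria, 4.49, and Hsd3b1, a steroid dehydrogenase, 3.95, with female ratios of 0.13, -0.43 and 0.24. Cyp11b1, which makes corticosterone, and Cyp21a1, the steroid 21-hydroxylase, were singled out after their values were seen and had 3.69 and 3.78 in males. A further Cyp21a1 probe gave 0.46 and a further Hsd3b1 probe 2.69. Cyp11b2 of the outer cortex had -0.12, with signals of 4.94 in control and 4.82 in AAI-treated males. These lie near the lowest above background on those arrays, 4.29 and 4.70, and the gene was below background in both female pools. The lower gene was Mc2r, the corticotropin receptor, with -2.07 by its brightest probe, while its other probe was at least 15.98-fold higher in AAI-treated males. The summed normalized signal of the list, on the linear scale, was 49928 in control females, 47761 in AAI-treated females, 54250 in control males and 113966 in AAI-treated males. Fdx1, Mrap and Scarb1, singled out after their values were seen, made up most of the sum in control females, with 14.64, 13.44 and 12.87. Their male ratios were 0.12, -0.19 and 0.12. The sums of the control pools therefore say little about the genes named first. Star gave 5.74 in control females and 8.53 in control males, and Hsd3b1 gave 6.23 and 10.16. Akr1b7 went the other way, with 9.46 and 8.47. All 16 genes were above background in both male pools and 15 in both female pools. The part of adrenal cortex RNA in the result for the chromaffin genes was not tested.

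Fat and muscle genes were higher too, and in part in both sexes. In males 6 of 9 brown fat genes and 6 of 10 white fat genes were at least 2-fold higher, with 1 lower in each list, and in females 1 of 8 and 3 of 10 were higher. Ucp1, the uncoupling protein of brown fat, had a male log2 ratio of 7.91 and was below background in both female pools. Of 12 skeletal muscle genes, 11 were at least 2-fold higher in each sex, with medians of 6.01 in males and 5.45 in females. The summed signal of the muscle list was 1320 in control and 48119 in AAI-treated females, and 5997 in control and 382960 in AAI-treated males. For brown fat it was 5888, 9412, 16320 and 72274 in control females, AAI-treated females, control males and AAI-treated males, and for white fat 7213, 8807, 11373 and 84883. The lower brown fat gene, Elovl3, had a male log2 ratio of -5.71. Its signal of 13.58 in control males made up most of the brown fat sum there. The part of muscle or fat RNA in any of these values, or in those of the chromaffin genes, was not tested.

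Islets and the gut also hold cells with chromogranin granules, and their genes were read in the same way. Of 12 islet genes, 0 were at least 2-fold higher and 1 was lower in males (G6pc2, with -3.42), and the male ratios of Ins1, Ins2, Gcg and Sst lay between -0.21 and 0.44. The summed islet signal was 1479, 1710, 1779 and 1467 in the order of groups given above. Of 8 enteroendocrine genes with a signal, 2 were at least 2-fold higher in males, Sct with 1.18 and Nts with 1.02, against 3.51% of all genes, and the summed signal was 1490, 1816, 1365 and 1570. Of 12 acinar pancreas genes, 0 were past 2-fold in either sex. The part of islet, gut or pancreatic RNA in the result for the chromaffin genes was not tested. Of the kidney genes, 2 of 11 were higher and 1 was lower in males. The largest ratio among them was that of Pvalb, with 3.80 in males and 1.17 in females, a gene that fast skeletal muscle also makes.

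**Figure D4:**
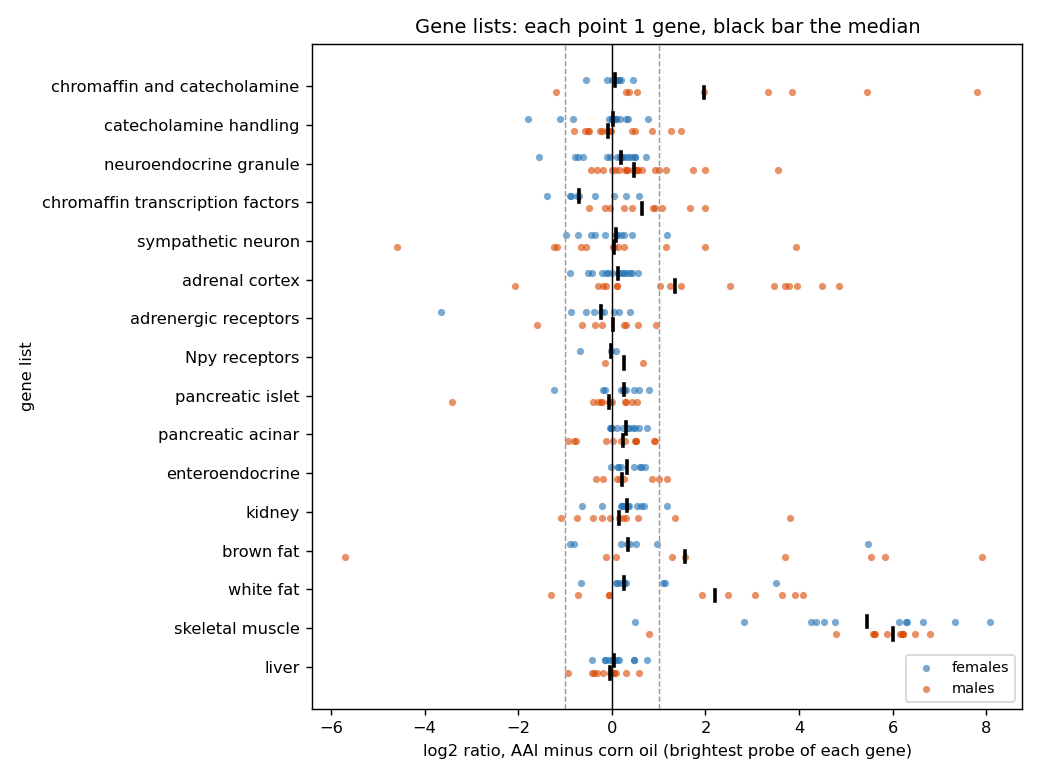
Log2 ratio of AAI-treated to control mice for each gene of the 9 chromaffin and catecholamine genes and of 15 other lists, in females and males; 1 point is the brightest probe of 1 gene, black bars are medians and dashed lines mark a 2-fold difference. Male medians are highest for skeletal muscle (6.01), white fat (2.20), the chromaffin and catecholamine genes (1.97), brown fat (1.57) and adrenal cortex (1.36).

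The profile of the chromaffin genes over the 4 arrays was taken as the mean of Th, Dbh, Pnmt, Chga and Chgb, each centred on its own mean and read by its brightest probe. Their male log2 ratios ran from 0.37 for Dbh to 7.79 for Chgb, so Chgb weighs most in the mean. The profile was -0.91 in control females, -0.92 in AAI-treated females, -0.54 in control males and 2.37 in AAI-treated males. The closest of 32097 other genes by Euclidean distance, in log2 units, were Fabp4 and Adig, at 0.19 and 0.21, which are fat cell genes. Among the 10 closest were also Stac3, a muscle gene, at 0.33, Abcb1b, a drug efflux pump, at 0.33, and Efhd1, Lrrn1 and Gm16086, at 0.38, 0.39 and 0.31, with the other 3 known by transcript or probe identifiers only. Gm16086, Lrrn1 and these 3 were well above background in AAI-treated males only. Their distances thus rest on signals near the floor in the other pools. With 4 points, of which 1 carries nearly all of the profile, the distance says little more than that a gene was highest in AAI-treated males by a like amount.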

How the data were processed

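RNA of 5 mice per group was labeled with Cy3 and hybridized to 1 SurePrint array per group. The authors scanned the arrays with Feature Extraction 10.5.1.1 and deposited linear spot intensity values, with an error estimate and quality marks, not normalized between arrays. They also deposited a table of intensity values after quantile normalization. Here log2 of the processed intensity was averaged over the spots of a probe without outlier spots, and quantile normalized over the 4 arrays (56495 probes). A gene is read by its brightest probe. A ratio was counted at 2-fold or more where the probe was well above background (more spots above than not) on at least 1 of the 2 arrays. It became a bound against the lowest signal above background where it was not on the other. With 1 array per group no p-value exists, and precision is limited by that number. Functions were tested on simulated data. Named were all 9 genes, at most 3 genes per list with the largest ratios, and the 10 nearest profiles, with others named as list members or said to be singled out. Some genes of the lists are not reported here by name. Genes and lists were chosen with earlier results of these data known. Python 3.11.15, R 4.3.3 and limma 3.58.1 were used.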

Additional observations from a re-analysis of the deposited data

Results flagged for a closer look

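The second probe of Slc18a1, the vesicular monoamine transporter 1, moved in opposite directions in the sexes. Its log2 ratio was -0.46 in females and 0.30 in males, each beyond the median SD between probes of a gene. The difference was not tested, and the brightest probe of the gene had 0.13 and 0.29.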

How the results depend on the processing

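Under 9 alternatives, the count of genes at least 2-fold higher in males was 5, or 7 with the mean of all probes per gene. With that mean the count of lower genes in males was 0 in place of 1 and the male median was 2.74, and a 3-fold threshold also left 0 lower genes. Under the normexp background model the male median was 1.68. With no filter on dim probes 1 gene was higher in females, Scg2, in place of 0. No called ratio of a chromaffin or catecholamine gene or probe changed sign. The mean of all probes gave male ratios of 2.74 for Dbh and 1.90 for Th. The normexp model, which adds an offset of 50, gave 5.79 for Chgb, 3.94 for Scg2, 3.04 for the second Dbh probe and 2.38 for Npy. It left 1 transcription factor gene higher in males in place of 3, and a median of that list of 0.33 in place of 0.65. Of the enteroendocrine genes it left 0 higher in males in place of 2. The share of all genes counted in males was then 1.81% higher and 2.11% lower, and in females 0.44% and 1.08%. With a 3-fold threshold these shares were 1.54% and 1.67% in males and 0.40% and 0.71% in females, and with no filter 2.91% of genes were higher in females. The second Dbh probe in females passed 2-fold under 2 alternatives, scaling to the 75th percentile and the authors' own normalized table. No paired analysis was possible because each group has 1 array. Dim probes such as those of Chgb in control pools limit the size of the largest ratios.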
